A study of Homo sapiens with 4 samples.

Results

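The genes followed here encode the RAS, RAF, MEK and ERK proteins of 1 signalling cascade: HRAS and NRAS, ARAF and BRAF, MAP2K1 and MAP2K2 (the MEK genes), and MAPK3 (the gene of ERK1). They were taken from a fixed list of symbols, and all 7 matched 1 gene ID each among 25798 IDs in the count and FPKM tables. Other genes of these families were not analysed here. RNA sequencing was done on 4 libraries of wild-type SW1990, an established human pancreatic cancer line. The DMSO group (2 libraries) received the solvent for 48 h, and the erianin group (2 libraries) received 100 nM erianin for 48 h. Erianin is a plant bibenzyl that binds tubulin, and the kinases AKT and ASK1 are given as direct targets in the title of the series. All libraries came from the 1 line, and the labels do not say whether each replicate was a culture of its own. The p-values therefore rest on a spread between libraries that may be only technical. In such bulk RNA, fewer cells of a kind and less RNA per cell cannot be told apart.

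RAS proteins are membrane-bound GTPases that growth factor receptors switch on through exchange factors. In their GTP-bound form they recruit RAF kinases, which phosphorylate MEK, and MEK phosphorylates ERK. ERK then acts on other kinases and on transcription factors. The cascade is best known in ductal pancreatic cancer for driving growth, and it is regulated mainly by phosphorylation and GTP loading, which RNA levels do not show.

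The libraries held 59923935 to 63336545 counts. Of the markers of the labelled cells, the keratin genes KRT7, KRT8, KRT18 and KRT19 had 893 to 3030 FPKM, while EPCAM and CDH1, which also mark epithelium, had 1.48 to 3.5 and 2.75 to 3.58 FPKM. The summed level of the 8 epithelial markers was 6904 and 6949 FPKM in DMSO and 7145 and 7624 FPKM in erianin. Of 14 markers of fibroblasts, blood and endothelium, 12 were in the table. Their summed level was 106 to 108 FPKM in DMSO and 107 to 116 FPKM in erianin, of which CD68 made up 101 to 112 FPKM. The fibroblast genes COL3A1 and DCN had 1.44 and 1 FPKM in DMSO replicate 1 and at most 0.09 FPKM in each other library. The part of these markers in the results below was not tested.

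The genes differ in base composition, which is set beside their fold changes further below. A stretch of the third coding exon of HRAS and NRAS, codons 98 to 127, shows it in 2 genes whose proteins are close relatives. It lies at chr11:533522-533611 in HRAS and at chr1:114709638-114709727 in NRAS (GRCh38, minus strand in both, from GENCODE release 29). Capitals mark a G or C at the third position of a codon.
HRAS: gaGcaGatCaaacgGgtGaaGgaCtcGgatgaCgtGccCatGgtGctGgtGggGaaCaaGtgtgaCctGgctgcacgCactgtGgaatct
NRAS: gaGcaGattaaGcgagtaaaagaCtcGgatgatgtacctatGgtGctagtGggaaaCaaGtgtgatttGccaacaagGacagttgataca
In these 30 codons, 26 encode the same residue, yet 15 of those 26 use another codon. A G or C stands at the third position of 22 codons in HRAS and of 12 in NRAS. Over the whole coding sequence of 189 codons, 161 residues are identical, and the third position is G or C in 81.5% of HRAS codons and 46% of NRAS codons. In the other genes that share, counted with the stop codon, was 83.5% for MAP2K2, 82.1% for MAPK3, 74.6% for ARAF, 63.7% for MAP2K1 and 42% for BRAF. The GC content of the longest annotated transcript followed the same split. It was 65.8% for HRAS, 61.4% for MAPK3, 60.9% for MAP2K2, 58.9% for ARAF, 50.4% for MAP2K1, 40% for BRAF and 38.4% for NRAS.

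Among the genes analysed here, the RAS, RAF and MEK tiers each had 1 abundant and 1 scarcer gene. Levels are given as FPKM, fragments scaled to transcript length and library size, summed over the rows of a gene, since only values per length can be compared between genes. MAP2K2, which encodes MEK2, stood highest, with 220.7, 221.5, 234.3 and 246 FPKM in the order DMSO replicate 1, DMSO replicate 2, erianin replicate 1, erianin replicate 2. MAPK3 followed with 89.1, 89.7, 94.2 and 95.6 FPKM. ARAF, which encodes a RAF kinase of low basal activity, had 60.04, 59.9, 61.1 and 64.9 FPKM. HRAS had 55.4, 55.9, 61.0 and 61.7 FPKM, and its range overlapped that of ARAF. MAP2K1, which encodes MEK1, had 15.5, 15.2, 15.2 and 12.5 FPKM, so every library lay below every library of HRAS. NRAS had 4.98, 5.05, 4.39 and 3 FPKM. BRAF, which encodes the RAF kinase with the highest basal activity, had 1.27, 1.03, 1.25 and 0.83 FPKM, the lowest of the 7. Apart from ARAF and HRAS, no neighbours in this order had overlapping ranges. The mean of MAP2K2 over the 4 libraries exceeded that of 98.5% of the gene IDs with a value above 0, and the mean of BRAF that of 59.4%. The order was the same in the DMSO libraries alone. With only the row of highest mean count for each gene, ARAF came before MAPK3.

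**Figure D1:**
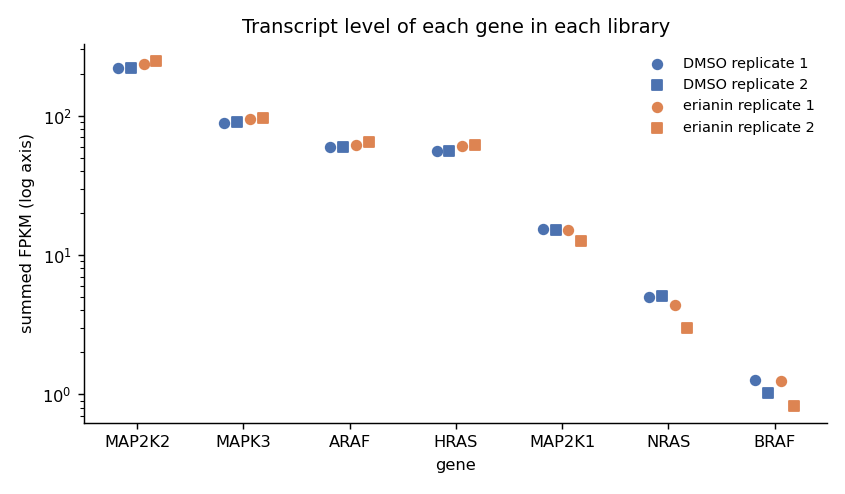
Summed FPKM (log axis) of each gene in each of the 4 libraries, in order of the mean; circles are replicate 1 and squares replicate 2, blue DMSO and orange erianin. The genes run from 220.7 to 246 FPKM for MAP2K2 down to 0.83 to 1.27 FPKM for BRAF, and ARAF and HRAS overlap.

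The comparison of erianin with DMSO asked whether transcripts of the cascade differed after exposure to the compound. None of the 7 genes passed edgeR's quasi-likelihood test at a Benjamini-Hochberg adjusted p under 0.05 over all genes tested, where 7 of 17090 genes did (0.041%). At an unadjusted p under 0.05 there were also 0 of 7, against 8.1% of all genes tested. The values below are CPM, counts scaled by the TMM-adjusted library size, and the errors of log2 fold changes are standard errors. In 4 genes, HRAS, ARAF, MAP2K2 and MAPK3, both erianin libraries were above both DMSO libraries, as in 21.7% of all genes tested. In NRAS both were below both DMSO libraries, as in 24.4% of all genes tested. BRAF and MAP2K1 overlapped.

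Among the RAS genes, HRAS measured 68.9 and 69.8 CPM in the DMSO libraries, against 77 and 86.5 CPM with erianin, with the highest value in erianin replicate 2. Its log2 fold change was 0.24 ± 0.11 (SE, adjusted p = 0.575), with a 95% interval from -0.01 to 0.49. NRAS measured 24.2 and 24.6 CPM in the DMSO libraries, against 21.7 and 16.4 CPM with erianin. Erianin replicate 2 was again the library farthest from DMSO, here as the lowest, and the log2 fold change was -0.35 ± 0.17 (SE, adjusted p = 0.575), with an interval from -0.75 to 0.04. HRAS counts exceeded NRAS counts 2.85- and 2.84-fold in the DMSO libraries and 3.54- and 5.27-fold in the erianin libraries. Counts are not scaled to length, and in FPKM the ratio was 11.1 and 11.1 in DMSO and 13.9 and 20.6 in erianin. The ratio of counts is taken within a library and does not depend on the scaling. On the log2 scale it averaged 1.51 ± 0.01 in DMSO and 2.11 ± 0.40 in erianin (SD, n = 2 each), a difference of 0.60. An exact two-sided permutation test gave p = 0.333 (n = 2 each), the smallest that 2 libraries against 2 allow. After a trend of the counts on GC content and transcript length was taken out of every library, the log2 fold changes of HRAS and NRAS differed by 0.11.

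Of the RAF genes, ARAF measured 158.4 and 157.1 CPM in the DMSO libraries, against 163.6 and 193.3 CPM with erianin. The groups did not overlap, and erianin replicate 1 lay close to DMSO. The log2 fold change was 0.18 ± 0.11 (SE, adjusted p = 0.59), with an interval from -0.07 to 0.43. BRAF measured 8.76 and 8.19 CPM in the DMSO libraries, against 9.77 and 8.22 CPM with erianin, so that 1 erianin library lay above DMSO and the other between the DMSO libraries. Its log2 fold change of 0.09 ± 0.18 (SE, adjusted p = 0.882) had an interval from -0.33 to 0.51. The sign was not stable: with library totals in place of TMM it was -0.0078, and in a limma fit on log2(FPKM + 0.1), which changes unit, scaling and method at once, it was -0.15. With the row of highest mean count alone it was 0.73. BRAF rested on 457 to 622 counts per library, the fewest of the 7.

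Both MEK genes were measured deeply, with 2231 to 2897 counts per library for MAP2K1 and 27114 to 29903 for MAP2K2. MAP2K1 measured 43.9 and 43.1 CPM in the DMSO libraries, against 43.9 and 40.1 CPM with erianin, all within a narrow band. Its log2 fold change was -0.05 ± 0.12 (SE, adjusted p = 0.902), with an interval from -0.33 to 0.23, and 0.02 without erianin replicate 2. MAP2K2 measured 431.3 and 434.6 CPM in the DMSO libraries, against 461.5 and 538.1 CPM with erianin. Its log2 fold change was 0.21 ± 0.10 (SE, adjusted p = 0.575), with an interval from -0.03 to 0.45. The within-library ratio of MAP2K2 to MAP2K1 counts was 9.83 and 10.1 in DMSO and 10.5 and 13.4 in erianin, a difference of 0.25 on the log2 scale. The same exact two-sided permutation test gave p = 0.333 (n = 2 each). Without erianin replicate 2 the difference was 0.08. With the GC and length trend removed, the log2 fold change of MAP2K2 less that of MAP2K1 was 0.07. In FPKM the ratio was 14.3 and 14.6 in DMSO and 15.4 and 19.7 in erianin. The ratio of ARAF to BRAF overlapped between the groups, at 18.1 and 19.2 in DMSO and 16.7 and 23.5 in erianin (exact permutation p = 1, n = 2 each). In FPKM that ratio was 47.3 and 58.2 in DMSO and 48.9 and 78.2 in erianin. With the GC and length trend removed, the log2 fold change of ARAF less that of BRAF was -0.41. The 3 ratios of counts are the whole family tested, and no adjustment could bring any of them under 0.05.

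MAPK3 measured 167.7 and 167.8 CPM in the DMSO libraries, against 179.2 and 214.6 CPM with erianin. On this scale the DMSO libraries were almost equal, and erianin replicate 2 stood above erianin replicate 1, whereas in FPKM the erianin libraries were close, at 94.2 and 95.6. The log2 fold change was 0.23 ± 0.11 (SE, adjusted p = 0.575), with an interval from -0.02 to 0.48.

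**Figure D2:**
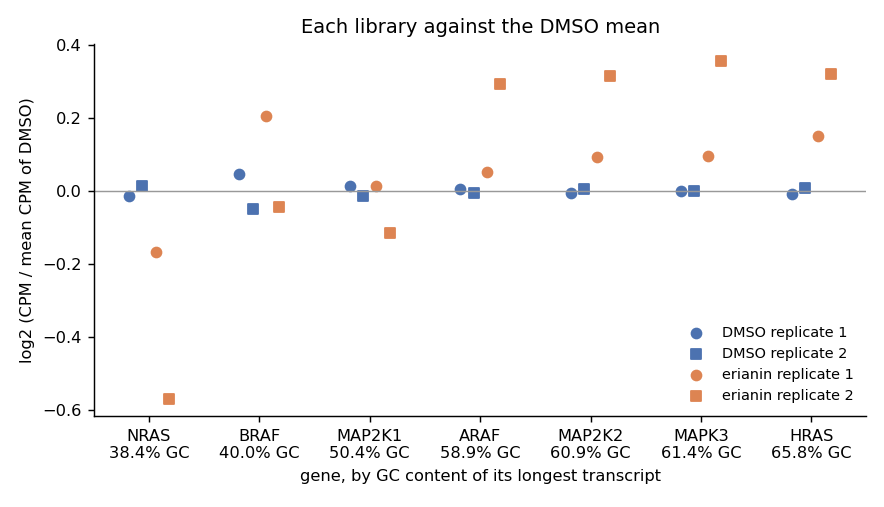
Log2 of the CPM in each library over the mean CPM of the DMSO libraries, for the 7 genes in order of the GC content of the longest transcript. DMSO points lie near 0, and erianin replicate 2 (orange squares) runs from -0.57 for NRAS to 0.36 for MAPK3, farther from 0 than erianin replicate 1 in each gene but BRAF.

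In TMM-scaled CPM the size of these differences followed 1 library. Against the DMSO mean, the log2 values in erianin replicate 1 were 0.15 for HRAS, -0.17 for NRAS, 0.05 for ARAF, 0.09 for MAP2K2 and 0.10 for MAPK3. In erianin replicate 2 they were 0.32, -0.57, 0.29, 0.31 and 0.36 in the same order. When erianin replicate 1 was left out, 5 of the 7 genes passed edgeR's test. They were HRAS (log2 fold change 0.31, adjusted p = 0.0307), NRAS (-0.58, 0.0185), ARAF (0.28, 0.016), MAP2K2 (0.30, 0.00938) and MAPK3 (0.35, 0.00872). In that fit 17.5% of all genes passed, and the lone erianin library was assumed to vary like the DMSO libraries. In the fits without each other library, 0 of 7 passed. The scaling mattered as well. The TMM factor was 0.928 in erianin replicate 2 and 1.01 to 1.04 in the other libraries. With library totals alone the median of all genes was -0.11, and the log2 fold changes were 0.14 for HRAS, -0.45 for NRAS, 0.07 for ARAF, 0.10 for MAP2K2 and 0.13 for MAPK3. In FPKM the erianin libraries of HRAS, at 61.04 and 61.7, were also close to each other.

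Fold changes moved with GC content among the more highly expressed genes at large. Among the 7968 genes whose mean log2 CPM reached 3, the log2 fold change and the GC content of the longest transcript had a Spearman correlation of 0.66 across genes, which share their libraries and are not independent replicates. The median log2 fold change was -0.27 for the 723 genes with 35% to 40% GC and 0.17 for the 1161 genes with 60% to 65% GC. In erianin replicate 2 against the DMSO mean these medians were -0.45 and 0.26, and in erianin replicate 1 they were -0.14 and 0.08. HRAS, MAPK3 and MAP2K2, at 60.9% to 65.8% GC, lay near the upper end of this trend and NRAS near the lower end. BRAF, at 40% GC, did not lie along it.

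**Figure D3:**
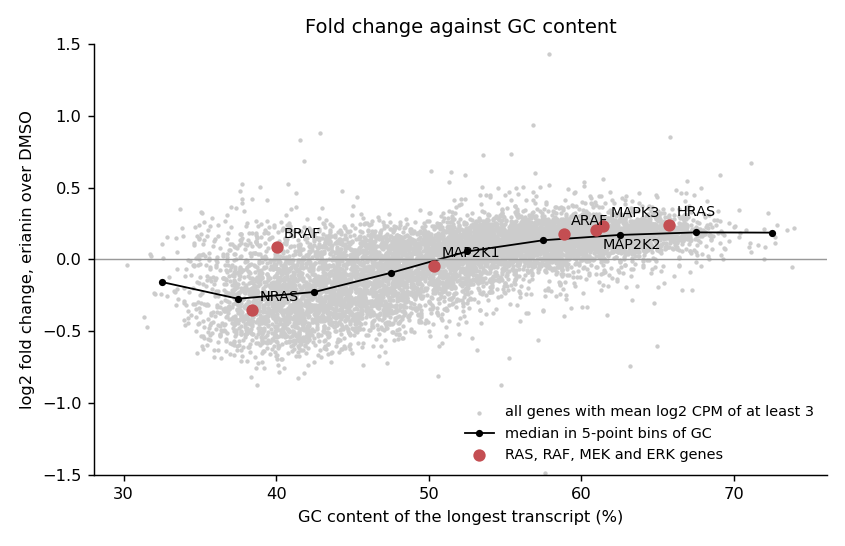
Log2 fold change of erianin over DMSO against the GC content of the longest transcript for the 7968 genes whose mean log2 CPM reached 3 (grey), with medians in bins of 5 percentage points (black) and the 7 genes (red). The 2 genes beyond 1.5 on either side are not drawn. 6 of the red points lie near the black line, and BRAF, at 0.09, lies above it.

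With that GC and length trend removed library by library, the log2 fold change of HRAS was -0.00068 ± 0.08 (SE), that of ARAF 0.01 ± 0.07, that of MAP2K2 0.04 ± 0.06 and that of MAPK3 0.05 ± 0.06. NRAS was at -0.11 ± 0.12 and MAP2K1 at -0.03 ± 0.09. For BRAF the value went the other way, to 0.42 ± 0.14 (SE, adjusted p = 0.738). The lowest adjusted p among the 7 in this fit was that of BRAF. Whether the GC trend comes from the compound or from the preparation of single libraries cannot be told apart with 2 libraries a group.

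**Figure D4:**
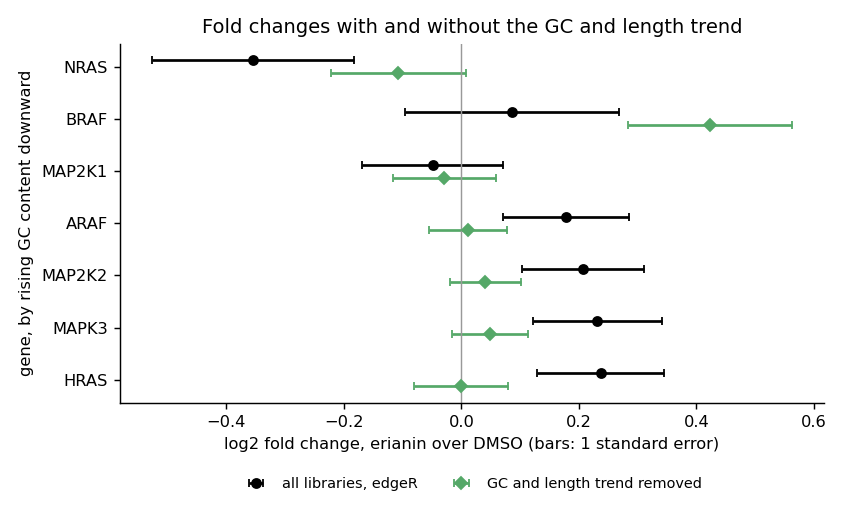
Log2 fold change of erianin over DMSO for the 7 genes with bars of 1 standard error, from the edgeR fit (black circles) and from the fit with the GC and length trend removed (green diamonds). HRAS moves from 0.24 to -0.00068, NRAS from -0.35 to -0.11 and BRAF from 0.09 to 0.42.

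The deposited tables divide most of these genes over several rows without transcript names, and the rows varied far more between libraries than the sums. The 7 genes had 58 rows, from 1 for NRAS to 13 for MAPK3. In a fit of edgeR over all rows singly, 40 of the 58 could be tested and 0 passed, as did 0% of the 48163 rows tested. At an unadjusted p under 0.05 there were 1 of the 40 and 2846 of all rows, and the smallest adjusted p of the 40 was 0.629. In BRAF, row 1 held 0, 300, 345 and 0 counts and row 2 held 298, 0, 0 and 413, in the same order of libraries. Whichever of the pair was at 0 in a library, the other was not, and the lengths implied by count and FPKM were close, at 9686 and 9792 nucleotides. BRAF row 4, with an implied 6474 nucleotides, held 163, 177, 236 and 9 counts. In MAPK3, row 2 held 0, 2378, 0 and 1719 counts, so it was at 0 in 1 library of each group. MAPK3 rows 3 and 4 were lowest in DMSO replicate 2, at 159 and 200 counts, and highest in erianin replicate 1, at 1873 and 1977. In MAP2K1, row 5 held 407 counts in DMSO replicate 2 and 0 in the other libraries, while the main row 6 held 2604, 2149, 2689 and 2175.

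HRAS, ARAF and MAP2K2 had a steadier make-up. The main HRAS row, with an implied length of 1070 nucleotides, took 55.3% to 62.2% of the gene's counts. The main row of ARAF took 98% to 99% and that of MAP2K2 93.4% to 96.4%. Counts of a row could be moved to another row of the same gene by the authors' counting, so a single row is uncertain and the sums carry the results.

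**Figure D5:**
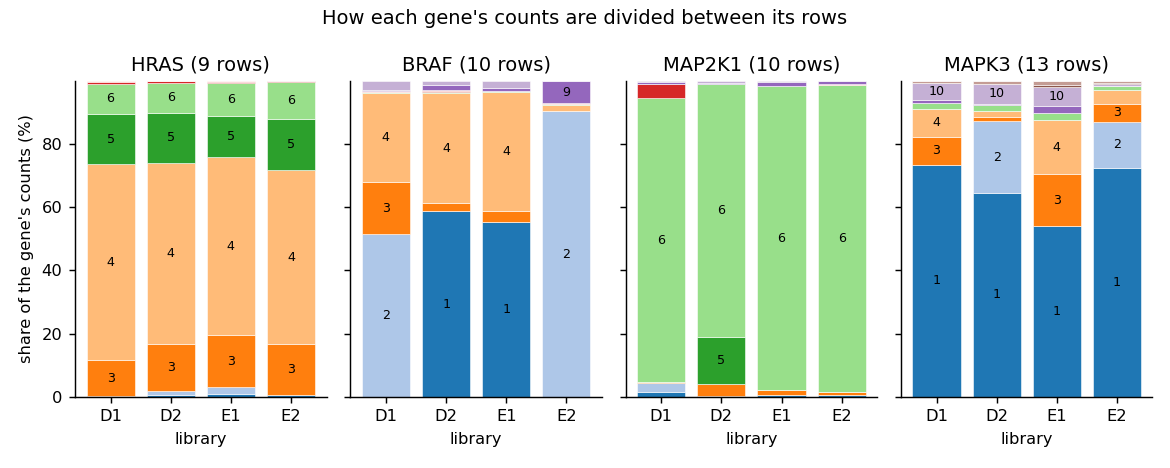
Share of a gene's counts (%) in each of its rows, stacked in file order, for HRAS, BRAF, MAP2K1 and MAPK3 in the DMSO (D1, D2) and erianin (E1, E2) libraries; numbers name rows of at least 5%. BRAF changes between rows 1 and 2, and MAPK3 row 2 appears only in D2 and E2.

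Sequence shared with other genes touches 3 of the 7. HRAS (GRCh38 chromosome 11, 532242 to 537287, minus strand), NRAS (chromosome 1, 114704469 to 114716894, minus strand) and MAPK3 (chromosome 16, 30114105 to 30123506, minus strand) overlap no other gene of GENCODE release 29 and share no stretch of 200 nucleotides at 95% identity with another gene. ARAF (chromosome X, 47561100 to 47571920, plus strand) shares no such stretch and lies across from SYN1. MAP2K2 (chromosome 19, 4090321 to 4124129, minus strand) shares 1120 nucleotides with AC011005.1, which had 17 to 33 counts per library. MAP2K1 (chromosome 15, 66386817 to 66492312, plus strand) shares 616 nucleotides with its pseudogene MAP2K1P1, at 3 to 18 counts. MAP2K1 also shares 218 nucleotides with SNAPC5, at 375 to 661 counts, and 220 with AC116913.1, at 16 to 19 counts. SNAPC5 and AC116913.1 overlap MAP2K1 on the other strand. BRAF (chromosome 7, 140719327 to 140924928, minus strand) shares 1239 nucleotides with NDUFB2, an overlapping gene on the other strand with 7431 to 8115 counts. In all, 57 genes share such a stretch with BRAF, 45 of them in the table. Among the 57 are its pseudogene BRAFP1, with 661 nucleotides but not one of the 45, and CYB5R3, with 307 nucleotides and 24619 to 26850 counts. NDUFB2 and BRAFP1 aside, the longest stretch shared with each of the 57 genes spans only 200 to 329 nucleotides. BRAF itself had 457 to 622 counts. Without strand, reads from BRAF and NDUFB2 cannot be told apart, and whether the counting used it is not stated, so the BRAF values are uncertain. The same limit holds for reads from the stretches that MAP2K1 shares with SNAPC5 and AC116913.1.

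The pathway around these genes was read from 8 lists with 100 genes, of which 90 were tested. None passed, and 14 (15.6%) had an unadjusted p under 0.05, against 8.1% of all genes tested. The lists were chosen with earlier results of these data known, so this share is a description only. There were 40 genes above 0 and 50 below 0. Over all genes tested, 48.7% were above 0, with a median of -0.01. The 3 genes with the smallest p in each list are named, so they were chosen for their difference in this fit. The range of each list's median is over 15 alternatives in scaling, filter, unit, method, block, GC trend and libraries left out. All values that follow are log2 fold changes, and none of these genes passed the test (edgeR, adjusted p from 0.575 to 0.602).

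Of 10 exchange factors and adaptors that switch RAS on, 6 were below 0, with a median of -0.20 that ranged from -0.31 to 0.08. It was 0.08 without DMSO replicate 1 and -0.06 with the trend removed. In 3 of the 10 both erianin libraries lay below both DMSO libraries and in 3 above, against 24.4% and 21.7% of all genes tested. The same shares of all genes stand beside these counts in each list below. SOS1 and SOS2, the exchange factors recruited to receptors, were at -0.68 ± 0.22 and -0.79 ± 0.29 (SE), and PTPN11, the phosphatase SHP2, at -0.53 ± 0.21. These 3 are the lower ones, with GC contents of 37.8% to 42.2%. With the trend removed they were at -0.38, -0.53 and -0.27. Of 11 GTPase activating proteins and related genes, which switch RAS off, 6 were below 0, with a median of -0.0020 that ranged from -0.22 to 0.02. This median was -0.04 with the trend removed. In 4 of the 11 both erianin libraries lay below both DMSO libraries and in 3 above. NF1 and RASA1, both RAS GTPase activating proteins, were at -0.32 ± 0.18 and -0.65 ± 0.30, and SPRED1, which brings NF1 to the membrane, at -0.41 ± 0.17. With the trend removed NF1 was at 0.02, SPRED1 at -0.09 and RASA1 at -0.44.

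Of 12 enzymes and carriers of RAS lipid processing and trafficking, 5 were above 0, with a median of -0.01 that ranged from -0.11 to 0.03. This median was 0.0038 with the trend removed. In 3 of the 12 both erianin libraries lay below both DMSO libraries and in 3 above. ZDHHC9, of the palmitoyl transferase for HRAS and NRAS, was at 0.22 ± 0.11, and at 0.33 with the trend removed. LYPLA2, a thioesterase, was at 0.19 ± 0.10 and ABHD17C, a depalmitoylase, at -0.54 ± 0.23. They were at -0.02 and -0.34 with the trend removed. Of 12 RAS-related GTPases, 10 were below 0, with a median of -0.17, which ranged from -0.27 to 0.03, and a median GC content of 41.2%. RAP2A was at -0.51 ± 0.21, RAP1B at -0.27 ± 0.14 and RRAS at 0.17 ± 0.11. In 6 of the 12 both erianin libraries lay below both DMSO libraries and in 1 above. With the trend removed 7 of these 12 were above 0 and the median was 0.03. RAP2A was then at -0.23, RAP1B at 0.07 and RRAS at -0.08. For RAP1B the unit mattered. In summed FPKM it stood at 17.97 and 19.64 in DMSO and at 7.19 and 5.74 in erianin. In CPM the gap was much smaller, at 56.1 and 56.4 in DMSO and 51.8 and 41.3 in erianin. The source of this difference between units was not tested.

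Of 19 scaffolds and regulators of RAF, MEK and ERK, 11 were below 0, with a median of -0.10 that ranged from -0.22 to 0.03. It was 0.03 without erianin replicate 2 and -0.09 with the trend removed. In 7 of the 19 both erianin libraries lay below both DMSO libraries and in 7 above. IQGAP1, a scaffold, was at -0.45 ± 0.14, and PPP1CB, a phosphatase subunit of the complex with SHOC2 that activates RAF, at -0.41 ± 0.14. LZTR1, an adaptor for the degradation of RAS proteins, was at 0.32 ± 0.12. Without the trend these 3 were at -0.17, -0.18 and 0.20. Of 6 other kinases of the ERK subfamily and their activators, 3 were above 0, with a median of -0.03 that ranged from -0.13 to 0.06. This median was 0.0011 with the trend removed. In 2 of the 6 both erianin libraries lay below both DMSO libraries and in 1 above. MAPK7, which encodes ERK5, measured 15.6 and 15.7 CPM in the DMSO libraries, against 20.3 and 20.1 CPM with erianin, a log2 fold change of 0.37 ± 0.14, and 0.28 with the trend removed. MAP3K2, an activator of the ERK5 pathway, was at -0.62 ± 0.24 and MAPK6, which encodes ERK3, at -0.40 ± 0.19. They were at -0.33 and -0.13 with the trend removed.

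Of 7 kinases that ERK phosphorylates, 4 were above 0, with a median of 0.10 that ranged from -0.04 to 0.13. It was 0.01 without DMSO replicate 1, -0.0013 without erianin replicate 2 and 0.02 with the trend removed. In 2 of the 7 both erianin libraries lay below both DMSO libraries and in 2 above. RPS6KA5 and RPS6KA3, which encode MSK1 and RSK2, were at -0.82 ± 0.22 and -0.70 ± 0.22, and RPS6KA4, which encodes MSK2, at 0.19 ± 0.10. With the trend removed they were at -0.46, -0.39 and 0.02. In summed FPKM the groups of RPS6KA5 overlapped, at 0.65 and 1.5 in DMSO and 1.03 and 0.15 in erianin. Of 13 genes that ERK is known to induce, feedback inhibitors among them, 9 were above 0, with a median of 0.05 that ranged from -0.05 to 0.09. It was -0.05 with library totals alone, -0.03 on log2(FPKM + 1) and 0.06 with the trend removed. In 1 of the 13 both erianin libraries lay below both DMSO libraries and in 4 above. FOSL1, an AP-1 factor, was at 0.27 ± 0.11, IER3 at 0.19 ± 0.09 and ETV4, an ETS factor, at 0.22 ± 0.12. With the trend removed these 3 were at 0.07, -0.01 and 0.03.

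Among the 7 genes and the listed genes whose mean log2 CPM reached 3, 73 candidates for each, the gene with the most similar pattern was found for each, by the root mean square difference of centred log2 CPM over the 4 libraries. It was PPP1CA for HRAS (0.023), MAPK6 for NRAS (0.042), RPS6KA4 for ARAF (0.013) and for MAP2K2 (0.0077), and MAP2K2 for MAPK3 (0.018). For BRAF it was PHLDA1 (0.055) and for MAP2K1 it was FNTA (0.028). The GC content was 61.4% for PPP1CA, 64.7% for RPS6KA4, 38.1% for MAPK6, 44.3% for PHLDA1 and 38.9% for FNTA. With 4 libraries this likeness is a description only.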

How the data were processed

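Total RNA of 4 SW1990 libraries was sequenced, and groups and replicate numbers came from the sample titles. Per the submitters' processing notes, the build was GRCh38 and the tools included featureCounts 2.0.1, StringTie 2.2.1, STAR and fastp, whose roles are not stated. Not given in the sources used here: annotation, use of strand and handling of reads matching several features. The authors deposited estimated counts, whole numbers and not normalized, in 107429 rows for 25798 gene IDs, and FPKM in the same rows, per the file headers. Rows with the same gene ID were added up, and no row was without a gene ID. Gene symbols were looked up by ID (20932 IDs with a symbol), and gene positions, transcript lengths and GC contents (longest transcript) from GENCODE release 29.

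The test was edgeR 4.0.16 (R 4.3.3), quasi-likelihood F test on summed counts, scaled by TMM and filtered by filterByExpr (minimum count 10), which left 17090 genes, all 7 members among them. P-values were adjusted by Benjamini-Hochberg over all genes tested. The model had the group as its single term and 2 residual degrees of freedom. Standard errors were derived from each log2 fold change and its F statistic (ratio to the root of F), and 95% intervals use 7.92 degrees of freedom, prior included. Rows were also fitted singly. The GC and length trend was fitted per library by natural splines (5 degrees of freedom each) and used as an offset. Implied row lengths used library totals from 436 to 475 genes with 1 row and 1 transcript. Shared sequence was found with BLAST+ 2.17.0. Alternatives used DESeq2 1.42.0, limma 3.58.1 on log2(FPKM + 1) and log2(FPKM + 0.1), other factors and filters, the replicate block and leaving out each library. The scripts were tested on simulated data. The members and lists were chosen with earlier results of these data known. Beside the 7 members, the named genes are those of each list past the threshold and the 3 with the smallest p, and for each member the gene nearest in pattern.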

Additional observations from a re-analysis of the deposited data

How the results depend on the processing

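The count of 7 genes called became 2 with library totals alone, 21 with DESeq2, 2 with limma on log2(FPKM + 1) and 2 on log2(FPKM + 0.1), 0 with the row of highest mean count alone, and 24 to 3166 when each library was left out. Of the 7, 2 were higher and 5 lower, against 0 and 2 with library totals and 4 and 6 with upper-quartile factors. No member passed in 19 of 20 alternatives, and 0 to 5 did over the fits that left out 1 library. No row passed in any of its 7 alternatives. In the order by FPKM, 5 of 7 genes kept their place with the row of highest mean count alone. The labels give only a shared replicate number. With the replicate block 334 genes were called, and 15 with the block and the GC and length trend removed, none of them a member. Deviations of same-numbered libraries correlated at 0.22, which with 2 numbers is 1 value.

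The sign of 4 members turned in some alternatives. HRAS was at -0.00068 with the trend removed, at -0.0022 with the block as well, and at -0.012 and -0.081 with the trend removed without DMSO replicate 1 or erianin replicate 1. ARAF was at -0.014 and -0.038 with the trend removed without DMSO replicate 2 or erianin replicate 2. BRAF was at -0.0078 with library totals, -0.081 and -0.15 on log2(FPKM + 1) and log2(FPKM + 0.1), and -0.053 without erianin replicate 1. Over the fits without 1 library BRAF ran to 0.21, and with the row of highest mean count it was at 0.73. MAP2K1 was at 0.15 with the row of highest mean count, 0.016 without erianin replicate 2 and 0.0078 in that fit with the trend removed. Over the same fits MAP2K1 ran from -0.12 to 0.016. NRAS, MAP2K2 and MAPK3 kept their sign in all 20. Removing the trend with 1 library left out was added after the data had been seen. The cause of these shifts was not tested. Of 120 list medians over all alternatives, 44 moved and 24 had the other sign. A median counted as moved when it changed by at least the SD of the medians of the 2 erianin libraries, each against the DMSO mean. For the ERK-induced genes those medians were 0.066 and 0.072, and 12 of 15 alternatives moved. For the RAS-related GTPases they were -0.12 and -0.26, and 2 of 15 moved. The count of moved medians thus depends on how close the erianin libraries were. BRAF had the fewest counts of the 7, at 457 to 622 per library.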
